A study of Mus musculus with 2 samples.

Results

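Immediate early genes are the genes a cell transcribes first after a receptor signal, from factors already present in the cell and without new protein synthesis. In T cells, the antigen receptor drives them through the Ras and MAP kinase pathway, which acts on serum response factor and its ternary complex partners, and through calcium, calcineurin, CREB and NF-kappa B. Many of their products are transcription factors that carry the signal on to later genes, and others restrain it or affect survival. The adaptor Lat lies upstream of these pathways: after receptor engagement its phosphorylated tyrosines bind phospholipase C gamma and other partners.

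The genes described here are 10 immediate early receptor-induced genes chosen by symbol: Ier3, Egr1, Egr2, Egr3, Gadd45b, Nr4a1, Fos, Fosb, Jun and Atf3. Of these, 9 had a probe whose annotation gives that symbol alone, with 1 probe each, among 4331 genes in all, and Egr2 was not analysed here. No filter on low values was applied, so the other 9 are all described.

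The RNA came from CD4+ alpha beta T cells, sorted from the spleens of LatY136F mice and of wildtype mice. LatY136F mice carry Lat with phenylalanine in place of the tyrosine that binds phospholipase C gamma; published background describes them as developing a lymphoproliferative disorder with strong T helper 2 polarisation. Per the labels, the cells of both genotypes were sorted positively with anti-CD4 beads and a flow sorter; the sources used here give no age, strain background, number of mice or stimulation in culture. Both RNAs were hybridised together on 2 two-colour arrays with the dyes reversed, and the pair was taken as 1 biological comparison, which allows no test and no p-value.

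Values are log2 ratios of LatY136F over wildtype on each array, after the sign of array 2 was turned. A mean of the 2 arrays is given ± 0.5 times their difference, which may be technical error only. The direction is likely and not certain, because the sources used here do not state it: the deposited value was read as channel 2 over channel 1. Under that reading Gata3, the T helper 2 transcription factor, stood at 2.95 and 2.91 on arrays 1 and 2, and the T helper 2 cytokine Il13 at 3.67 and 3.12, whereas Il4 stood at 1.41 and -0.97 and gives no direction. Were the ratio the other way up, each value below would change its sign. Lat itself stood at -0.16 and -0.17, which does not check the genotype of a substitution. The table holds ratios without signal intensities, so a gene's level in either genotype, and whether a marker was absent, cannot be read from it, and fewer cells of a type cannot be told apart from less RNA per cell.

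Of the 9 measured immediate early genes, Ier3, Gadd45b and Egr1 passed 2-fold in the higher direction in LatY136F T cells on both arrays, and none passed it in the lower direction. That is 33.3% of the 9, beside 4.20% of all 4331 genes called higher by the same rule and 0.970% called lower. The 9 and the lists below were chosen with earlier results of these data known, so such shares only describe the lists. The 3 were not alike in size: Ier3 was 18.4-fold higher, Gadd45b 2.41-fold and Egr1 2.22-fold. The AP-1 genes Fos, Fosb and Jun and the nuclear receptor gene Nr4a1 had mean log2 ratios between -0.19 and 0.19. Egr3 and Atf3 differed between the arrays by 1.49 and 1.80 log2 units. The median of the 9 means was 0.19, beside 0.00039 over all genes, but array 1 by itself gave 0.016 and array 2 by itself 0.37. Array 2 alone would call Egr3 higher and Atf3 lower as well. Of the 9, 4 lay above 0 on both arrays (30.3% of all genes did) and 1, Jun, below 0 on both (25.5% of all genes).

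**Figure D1:**
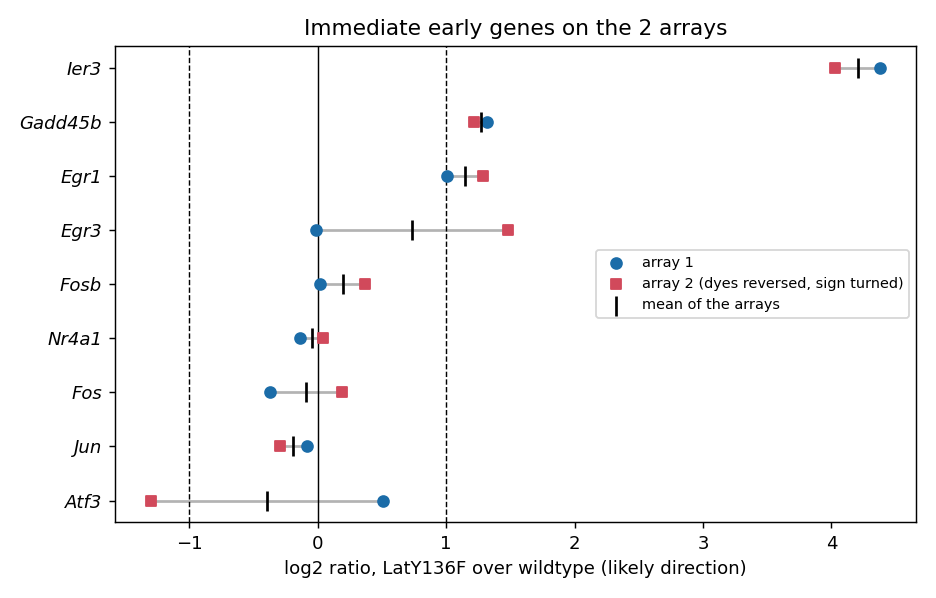
Log2 ratio of LatY136F over wildtype (horizontal axis) for the 9 measured immediate early genes (vertical axis), with array 1 as circles, array 2 as squares and the mean of the arrays as a bar; dashed lines mark 2-fold. Ier3, Gadd45b and Egr1 lie beyond the 2-fold line on both arrays, while the symbols of Egr3 and Atf3 lie far apart.

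Ier3 encodes a short-lived protein that is induced by growth factors, phorbol ester and NF-kappa B, is phosphorylated by ERK and affects survival. Its log2 ratio was 4.38 on array 1 and 4.03 on array 2, or 20.8-fold and 16.3-fold higher in LatY136F cells. The mean was 4.20 ± 0.17. Ier3 ranked 6 among 4331 genes on array 1, on array 2 and by the mean, so its place was the same with either dye orientation. The deposited log10 values were 1.315 on array 1, where the highest entry is 2, and -1.206 on array 2, where the lowest entry is -1.363. Neither value was thus the extreme entry of its array. The 3 genes nearest to Ier3 over the 2 arrays were Slpi, a secreted protease inhibitor (4.36 and 4.13), the integrin gene Itgb2l (4.33 and 3.92) and the protease gene Bace2 (4.07 and 4.15).

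Gadd45b belongs to a family of small stress-response proteins and binds the kinase Map3k4 upstream of p38. It stood at 1.32 and 1.22 on arrays 1 and 2, with a mean of 1.27 ± 0.05. Of all genes, 81.0% had a difference between the arrays at least as large as that of Gadd45b. The 3 genes nearest to it were Nptn (1.31 and 1.19), Ctnna1 (1.33 and 1.25) and Akap4 (1.27 and 1.23). Gadd45a, its relative induced by p53, stood at 0.05 and 0.16 and Map3k4 at 0.32 and 0.17, so neither lay near 2-fold.

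The promoters of Ier3 and Gadd45b are shown because these genes were called higher on both arrays, and that of Fos because it is the classical immediate early gene and was not called. Each window runs from 250 bases before to 50 bases after the start of the gene (RefSeq, GRCm38.p6, 5′ to 3′, plus strand for all 3): Ier3 at chr17:35821463-35821762, Gadd45b at chr10:80929841-80930140 and Fos at chr12:85473640-85473939. Capitals mark matches, on either strand, to the kappa B site, to the core TGACG of the cAMP response element, to the EGR site GCGNGGGCG and to TATAAA.
Ier3: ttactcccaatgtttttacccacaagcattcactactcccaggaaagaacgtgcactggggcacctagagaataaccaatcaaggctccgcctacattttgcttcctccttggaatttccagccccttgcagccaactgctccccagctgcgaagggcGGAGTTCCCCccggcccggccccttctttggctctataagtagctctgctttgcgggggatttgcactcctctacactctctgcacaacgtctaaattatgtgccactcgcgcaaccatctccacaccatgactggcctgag
Gadd45b: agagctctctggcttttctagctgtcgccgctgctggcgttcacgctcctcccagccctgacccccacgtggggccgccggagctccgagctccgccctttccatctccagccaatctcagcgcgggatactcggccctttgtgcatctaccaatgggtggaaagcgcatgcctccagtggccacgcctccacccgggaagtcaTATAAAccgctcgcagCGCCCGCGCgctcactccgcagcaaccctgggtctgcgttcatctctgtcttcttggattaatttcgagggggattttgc
Fos: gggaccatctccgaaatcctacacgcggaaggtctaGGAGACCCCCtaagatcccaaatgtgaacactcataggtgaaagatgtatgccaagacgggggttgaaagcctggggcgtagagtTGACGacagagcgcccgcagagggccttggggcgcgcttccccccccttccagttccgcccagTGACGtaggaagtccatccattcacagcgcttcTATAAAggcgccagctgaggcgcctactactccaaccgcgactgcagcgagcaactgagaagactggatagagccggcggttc

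The Ier3 window holds 1 kappa B match, beginning 92 bases before the start, and no other marked motif. The Gadd45b window holds 1 EGR match 30 bases before the start and TATAAA 46 bases before it. The Fos window holds TGACG at 129 and 66 bases before the start, a kappa B match at 214 and TATAAA at 33. These motifs are not rare: of 32851 promoter windows of this length, 4.51% hold a kappa B match, 5.55% the EGR site, 20.8% TGACG and 13.6% TATAAA. Windows of 7 members with 1 annotated start were searched (Ier3, Gadd45b, Nr4a1, Fos, Fosb, Jun and Atf3). No window of Egr1, which was called, or of Egr2 or Egr3 was searched. None of the 7 windows holds a CArG box, the core of the serum response element (1.63% of all windows), the full TGACGTCA, which contains the core (1.79%), or the AP-1 site TGANTCA (7.81%). Sequence further than 250 bases before the start was not searched, so a site there would be missed. Of the members not called, Nr4a1 holds 4 TGACG matches and Fosb and Atf3 hold 1 each, and both Nr4a1 and Fosb also hold 1 EGR and 1 kappa B match. Jun holds none of the motifs searched. A match describes the letters of the window and is not evidence of binding.

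The EGR factors are zinc finger proteins induced through ERK; in T cells Egr1 is among the earliest targets of the receptor, and Egr3, with Egr2, is also known to restrain activation. Egr1 stood at 1.01 on array 1 and 1.29 on array 2, with a mean of 1.15 ± 0.14. Its value on array 1 lay just past 2-fold: without centring the arrays on their medians it was 0.998, which ends the call and leaves Ier3 and Gadd45b as the members called. The 3 genes nearest to Egr1 were Smpdl3b (0.97 and 1.29), Ctsa (1.02 and 1.23) and Sema4a (1.09 and 1.25). Egr3 stood at -0.01 on array 1 and 1.48 on array 2, so the mean of 0.73 ± 0.75 rests on array 2 alone. A difference between the arrays at least as large was seen for 8.01% of genes. Egr4, the remaining family member with a probe, stood at -0.33 and 0.23.

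**Figure D2:**
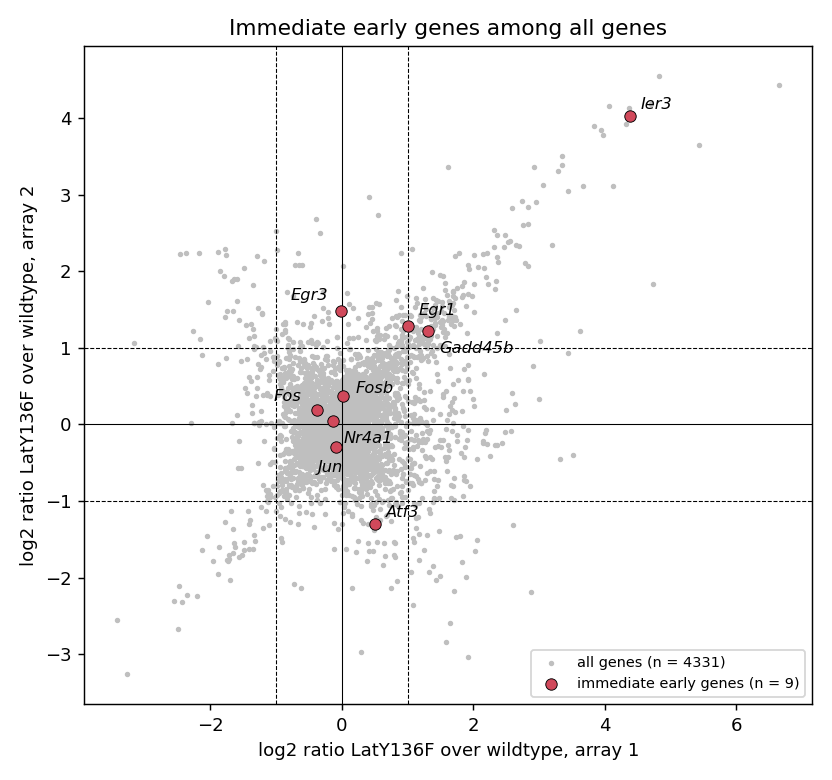
Log2 ratio of LatY136F over wildtype on array 1 (horizontal axis) and array 2 (vertical axis) for all 4331 genes (grey) and the 9 measured immediate early genes (red); dashed lines mark 2-fold. Ier3 lies at 4.38 and 4.03 near the upper right end, Egr1 and Gadd45b just past 2-fold on both axes, Egr3 and Atf3 away from the diagonal, and the AP-1 genes and Nr4a1 near the centre.

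Fos, Fosb and Jun encode the subunits of AP-1, the dimeric factor that works with NFAT at cytokine promoters in T cells. Fos stood at -0.37 on array 1 and 0.18 on array 2, with a mean of -0.09 ± 0.28. Fosb stood at 0.02 and 0.37 (mean 0.19 ± 0.18) and Jun at -0.09 and -0.29 (mean -0.19 ± 0.10). None of these 6 values reached 1.5-fold in either direction. Among their dimer partners, Junb stood at 0.98 and 0.36 and Jund at 0.61 and 0.51, above 0 on both arrays without a call. The FOS-like gene Fosl1 lay below 0 on both arrays (-1.02 and -0.32), and Fosl2 gave opposite signs (0.37 and -0.54). Batf, a partner of JUN proteins that acts with Irf4 in T helper cells, stood apart from these relatives at 1.79 and 2.24 (mean 2.01 ± 0.23, 4.04-fold higher).

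Nr4a1 encodes the orphan nuclear receptor Nur77, widely used as a reporter of antigen receptor signal strength. It stood at -0.14 on array 1 and 0.04 on array 2, with a mean of -0.05 ± 0.09. Its relatives gave opposite signs on the 2 arrays, Nr4a2 at -0.50 and 0.64 and Nr4a3 at 0.14 and -0.67. All 3 genes of this receptor family thus had opposite signs on the 2 arrays, as did 44.2% of all genes.

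Atf3 encodes a stress-induced factor of the ATF and CREB family that mostly represses. It stood at 0.50 on array 1 and -1.30 on array 2, and the mean of -0.40 ± 0.90 has no direction. The deposited values, 0.148 and 0.398 on the log10 scale, had the same sign on both arrays although the dyes were reversed. Only 5.24% of genes had a difference between the arrays at least as large. Opposite signs on the turned arrays were seen for 4 members (Egr3, Nr4a1, Fos and Atf3), or 44.4%, beside 44.2% of all genes. Related factors were closer to 0 on each array: Atf1 stood at 0.04 and 0.16, Atf2 at 0.19 and 0.03, Atf4 at 0.38 and 0.05, Creb1 at 0.15 and -0.60, and Ddit3, the stress factor CHOP, at 0.18 and -0.58.

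Over the whole list of relatives and partners of the members, 15 of 26 genes were measured. Batf alone, 6.67% of the 15, was called higher, none was called lower, and the median mean was 0.10. The share is close to the 4.20% over all genes. Ier2, another immediate early response gene, stood at 0.92 and 0.79, short of 2-fold on both arrays.

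Of 50 other genes known to be induced early by antigen receptor or growth factor signals, 32 were measured, 5 (15.6%) were called higher, beside 4.20% of all genes, and none was called lower, beside 0.970% of all genes. The median of the 32 means was 0.17. Klf10, a zinc finger factor induced early by TGF-beta, stood at 2.22 and 1.84 (4.08-fold higher by the mean). Id2, an inhibitor of E proteins, stood at 1.94 and 2.03, and Irf4, a factor induced in proportion to receptor signal, at 1.39 and 1.04. Both phosphatases called in this list act on MAP kinases. Dusp6, which removes phosphate from ERK, stood at 1.70 and 1.49, and Dusp1, named after its value was seen, at 1.01 and 1.05. Like Egr1, Dusp1 lay at 0.998 on array 1 without centring and was then not called.

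**Figure D3:**
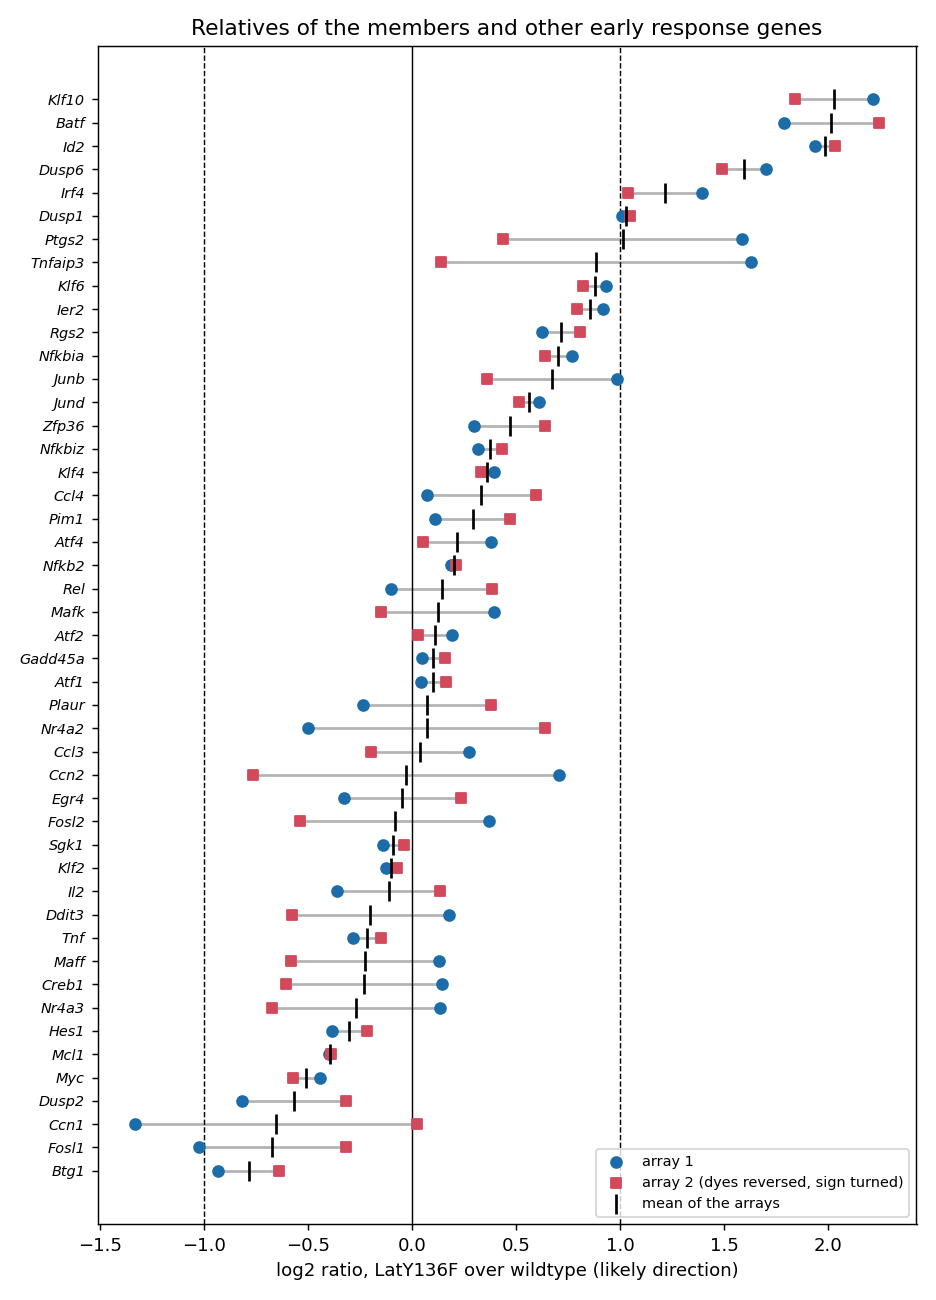
Log2 ratio of LatY136F over wildtype (horizontal axis) for the 15 measured relatives of the immediate early genes and 32 other early response genes (vertical axis, ordered by mean), with array 1 as circles, array 2 as squares and the mean as a bar; dashed lines mark 2-fold. Klf10, Batf, Id2, Dusp6, Irf4 and Dusp1 lie past 2-fold on both arrays, and no gene does so on the lower side.

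The remaining 27 early response genes were not called, and 8 of the 32 had opposite signs on the 2 arrays. The cytokine genes Il2 (-0.36 and 0.14) and Tnf (-0.28 and -0.15), both induced within hours of receptor engagement, were not among the higher genes, and Myc stood at -0.44 and -0.57. Tnfaip3 and Nfkbia encode inhibitors of NF-kappa B. Tnfaip3 stood at 1.63 on array 1 and 0.14 on array 2, and Nfkbia at 0.77 and 0.64. These 5 genes were named after their values were seen.

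Components upstream of the immediate early genes showed no 2-fold difference on both arrays, beside 4.20% of all genes called higher and 0.970% called lower. Of 19 measured genes of 37 listed, among them Srf, its partners Elk1, Elk3 and Elk4, MAP kinases and NFAT factors, none was called, and the median mean was 0.01. The genes furthest from 0 were the kinase gene Map3k1 (-0.65 and -0.86) and Nfatc1 (0.73 and 0.24). Transcript ratios do not show the activity of these kinases and factors.

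Genes described as targets of EGR factors in lymphocytes were measured for 14 of 18 listed. Cdkn1a, the cell cycle inhibitor p21, was the gene called, at 2.64 and 1.49 (4.19-fold higher by the mean), which is 7.14% of the 14, beside 4.20% of all genes. The median mean of 0.61 was above that of all genes. With 1.5-fold on both arrays as the rule, 6 of the 14 (42.9%) were higher, beside 7.83% of all genes, and 1 was lower, beside 2.93% of all genes. The lower gene was the diacylglycerol kinase Dgka (-0.92 and -0.69), and Dgkz, a related kinase that like Dgka limits Ras activation, stood at -0.69 and -0.43. By the same 1.5-fold rule, 2 of the 15 relatives (13.3%) and 8 of the 32 early response genes (25%) were higher. So were 12 of the 17 monocyte and macrophage markers (70.6%), but 0 of the 19 upstream genes. Fasl, Tnfrsf9 and Cd44 of the EGR target list are also on the list of activation and memory genes. Of 23 measured genes of that list, 11 (47.8%) were called higher, beside 4.20% of all genes. None was called lower, beside 0.970% of all genes, and 12 were not called. The means of the 23 ran from -0.86 to 3.89 with a median of 0.77. With 1.5-fold on both arrays, 12 were higher and 2 lower, beside 7.83% and 2.93% of all genes. Gzmb (3.94 and 3.84) and Anxa1 (3.83 and 3.89) led the genes called higher.

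Markers of other cells moved beside these ratios. For the counts below, 4.20% of all genes were called higher and 0.970% lower. By the 2-fold rule, 8 of 17 measured monocyte and macrophage markers were called higher and none was called lower; their means ran from -0.45 to 3.42 with a median of 1.18. Ccr2 (3.34 and 3.50), C1qc (2.56 and 2.40), Lyz1 (2.36 and 2.19) and Vcam1 (1.64 and 1.41) led them, while the defining marker Itgam stood at 0.22 and 0.37. Of 7 neutrophil markers 3 were higher, with a median of 1.02, namely Il1r2 (4.12 and 3.11), Lcn2 (2.92 and 3.37) and Ngp (2.66 and 2.34). B cell markers lay on the other side, with 8 of 15 called lower and none called higher, means between -2.29 and 0.63 and a median of -1.14; Cd79b (-2.47 and -2.11), Ighm (-1.88 and -1.95), Cr2 (-2.05 and -1.46) and Cd72 (-1.87 and -1.59) were furthest from 0. Erythroid and platelet markers were called higher for 4 of 5, led by Epor at 2.36 and 2.48, followed by Pf4 (1.91 and 1.19), Itga2b (1.29 and 1.11) and Hba-a1 (1.13 and 1.01), the last of which was not called without centring (0.98 on array 2). Of the 7 genes listed as dendritic cell markers, Cst3 was higher (1.14 and 1.24) and Ly6d lower (-1.39 and -1.24). The other 5 were not called, Itgax (0.79 and 0.70) among them, and the median was 0.08. None of 10 T cell markers was called, with a median of -0.05; Cd247 (-0.42 and -1.34) and Cd5 (0.70 and 0.92) were furthest from 0. Myeloid cells also transcribe Ier3, Egr1 and Gadd45b, and the part of these cells in the ratios of the 3 genes was not tested.

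Heat shock genes, like immediate early genes, respond to cellular stress. None of 11 measured heat shock and stress genes was called, beside 4.20% of all genes called higher and 0.970% called lower. Their means ran from -0.37 to 0.50 with a median of -0.07. Hspa5, a chaperone of the endoplasmic reticulum, stood at 0.53 and 0.48, and Hspe1, a mitochondrial chaperonin, at -0.34 and -0.41.

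**Figure D4:**
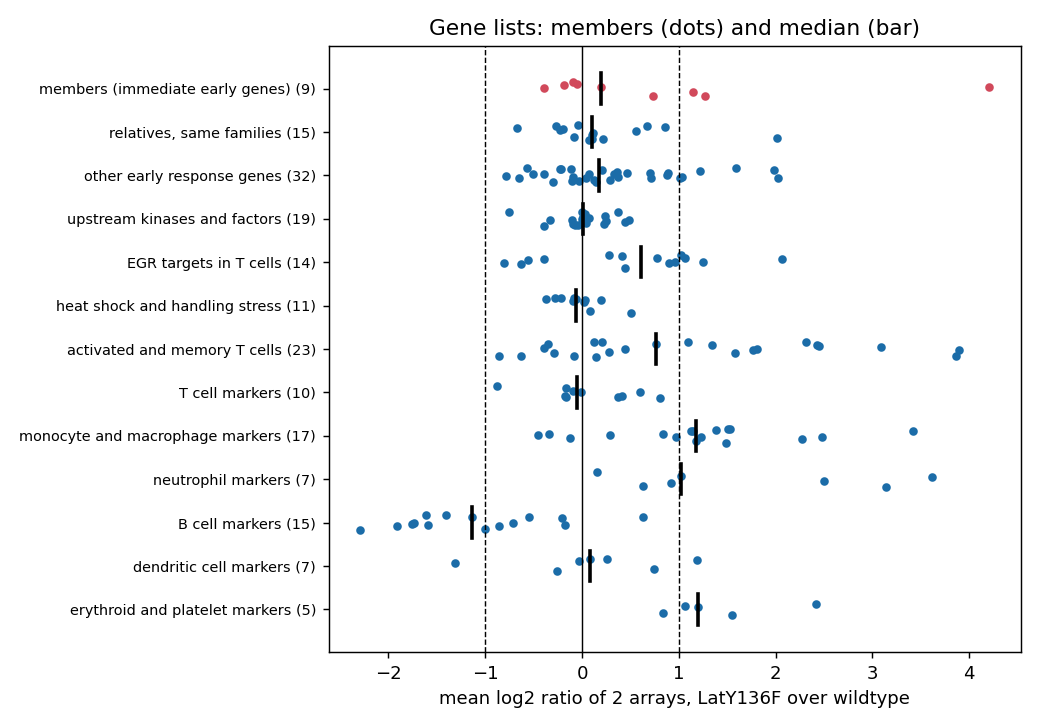
Mean log2 ratio of the 2 arrays, LatY136F over wildtype (horizontal axis), for each measured gene (dots) of the lists (vertical axis, number measured in parentheses), with the list median as a bar and dashed lines at 2-fold; dots are spread vertically only to keep them apart. The 9 immediate early genes (red) have a median of 0.19 with Ier3 far to the right, beside medians of 1.18 for monocyte and macrophage markers and -1.14 for B cell markers.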

How the data were processed

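The members and gene lists were chosen with earlier results of these data known. The deposited table holds 1 ratio per probe and array for 8014 probes, read as log10 ratios; the sources used here do not state the base of the logarithm or how the authors corrected background and normalized. The largest entry is exactly 2, which would be a 100-fold limit in log10. Over all probes the columns as deposited correlated negatively, though only weakly by rank (Pearson r -0.21, Spearman rho -0.06). Array 2 was multiplied by -1 because the labels give the dyes as reversed. In the final log2 ratios, 75 of the 4331 genes passed 2-fold in opposite directions on the 2 arrays, beside 182 called higher and 42 lower. Values were multiplied by 3.32 to give log2 ratios, each array was centred on its median, and probes of a gene were averaged (Python 3.11.15, pandas 2.3.3). Of the probes, 4654 have a single symbol in the platform annotation and were named; 73 have several and 3287 have none. A gene was called where both arrays passed 2-fold the same way, a log2 ratio of 1 or more (higher) or of -1 or less (lower); the calling code was tested on simulated data. The text names every member, all measured relatives, up to 4 called genes per other list (the 2 furthest from 0 where none was called), the 3 genes nearest to each called member by Euclidean distance over the arrays, and Gata3, Il13, Il4 and Lat; genes named outside this rule are defining markers, genes that another sentence sets beside them, or genes said to be named after their values were seen. Alternatives were no centring, scaling of the arrays, the strongest probe, single arrays, other thresholds, the turned sign, reading the table as log2, and omission of probes at exactly 0. The number of arrays limits the precision.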

Additional observations from a re-analysis of the deposited data

How the results depend on the processing

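Ier3 and Gadd45b were called higher under no centring, scaling, the strongest probe, leaving out probes at exactly 0, either array alone, 2-fold on the mean and 1.5-fold on both arrays; Egr1 was called under the same settings except no centring, which leaves 2 members. With 3-fold on both arrays 1 member was called (Ier3). Among the relatives, early response genes, upstream genes and EGR targets, the calls were 1 relative (Batf), 2 early response genes and 0 EGR targets. Of all 4331 genes, 69 were higher and 19 lower by that rule. A stricter threshold can only keep or lower such counts. With 1.5-fold on both arrays the calls in the same lists were 2 relatives, 8 early response genes and 6 EGR targets higher. Those lower were 1 early response gene, 1 upstream gene and 1 EGR target. By that rule 339 of all genes were higher and 127 lower. With 2-fold on the mean, 4 EGR targets were higher, as were 259 of all genes. Read as log2, 1 member was higher (Ier3, at 1.27, with Gadd45b at 0.38 and Egr1 at 0.35), and 0 relatives, 0 early response genes and 0 EGR targets, so the folds given depend on log10 being the base. Under that reading 13 of all genes were higher. With the sign turned, 0 members were higher and 3 lower (Ier3 -4.20, Gadd45b -1.27, Egr1 -1.15, median -0.19). Among the relatives, early response genes, upstream genes and EGR targets, 0 were then higher. Lower were 1 relative, 5 early response genes and 1 EGR target. The remaining lists turn likewise, so the 8 B cell markers called lower would be called higher.

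Leaving out either array gave 3 to 4 members higher and 0 to 1 lower, with medians between 0.016 and 0.37. Of all 4331 genes, array 1 alone called 408 higher and 145 lower, and array 2 alone 341 and 151. With both arrays required, 182 were higher and 42 lower. Single arrays gave 2 to 4 EGR targets higher, 0 to 1 relatives lower and 0 to 1 early response genes lower. No paired analysis was possible because the 2 arrays are a dye-reversal pair of a single comparison. The table holds no signal intensities, so how the precision depends on brightness was not tested.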

Other observations

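The Id, Kruppel-like and phosphatase genes described here were picked after their values were seen, and no difference between them was tested. Id2 stood at 1.94 and 2.03 on arrays 1 and 2, at least 2-fold higher in LatY136F cells, while Id3, the related inhibitor of E proteins, stood at -0.72 and -0.53. Of the Kruppel-like factors, Klf10 was 4.08-fold higher, Klf6 stood at 0.93 and 0.82 and Klf4 at 0.39 and 0.33, whereas Klf2, a factor of naive T cells, stood at -0.13 and -0.07. Of the MAP kinase phosphatases listed, Dusp6 and Dusp1 were called higher while Dusp2, an early response gene of activated T cells, stood at -0.81 and -0.32.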
